A study of Mus musculus with 20 samples.

Results

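Potassium channel genes were described across both experiments of the series. They were all genes with a symbol of the Kcn type followed by a family letter and a number, apart from Kcnj8, Kcnj10, Kcnj13 and Kcne2, which belong to pericytes, glia and choroid plexus, and apart from antisense names. The rule gave 89 genes of 55487 in the prefrontal cortex table and the same 89 of 57180 in the hippocampal table. They were divided into 40 voltage-gated pore-forming genes, 11 auxiliary genes of voltage-gated channels, 12 inward rectifiers, 14 two-pore genes and 12 calcium-activated genes. The last class also holds the related sodium-activated genes Kcnt1 and Kcnt2 and the pH-gated Kcnu1. In each tissue 78 of the 89 had enough counts to be tested, and 77 were tested in both.

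Messenger RNA was sequenced from bulk tissue of wild-type C57/BL6 mice aged 2 to 6 months. Males were injected intraperitoneally with 5 mg/kg of lipopolysaccharide (LPS), part of the outer membrane of Gram-negative bacteria and a trigger of inflammation, or with 0.9% saline, and prefrontal cortex was taken after 24 hours (n = 4 each). For the second experiment mice received 0.2 mg/kg of nicotine, which opens a class of acetylcholine receptors, or 0.9% saline, and hippocampus was taken after 24 hours (n = 6 each); sex and route are not given in the labels. Each tissue formed its own sequencing batch and table, so every test was made within a tissue.

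Potassium channels let potassium leave or enter the cell and set the resting potential, the shape of the action potential and the rate of firing. Voltage-gated channels open on depolarisation, inward rectifiers and two-pore channels carry current near rest, and calcium-activated channels follow calcium entry during spikes. Neurons express members of every class, whereas some, such as Kcnk13 and Kcnn4, are best known from microglia and other immune cells, and Kcnj16 from glia.

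In 4 of the 8 prefrontal cortex records (Samples 2L, 4L, 6L and 8L) the title and treatment field contradicted the name of the count column, and the column name was used. The saline group was therefore made of Samples 1L, 3L, 6L and 8L, the LPS group was made of Samples 2L, 4L, 5L and 7L, and values of single libraries are given in that order. Grouping the same libraries by title called 0 genes in edgeR, with 1 potassium channel gene at an unadjusted p under 0.05. The cortical libraries held 36371084 to 46106526 counts each and the hippocampal ones 51969343 to 68196280. Striatal markers varied widely between cortical libraries, from 399 to 1654 CPM (counts scaled to the normalised library total) summed over 13 genes with saline and from 492 to 2078 with LPS, with 0 of 13 called. Of 13 neuronal markers 12 were tested in cortex, with 2 higher and 3 lower, and Tubb3 was at 0 in all 8 libraries. In the hippocampal table Tubb3 was at means of 237 CPM with saline and 270 CPM with nicotine. Why the cortical table holds 0 for this gene was not tested. Bulk tissue cannot separate fewer cells of a type from less RNA per cell.

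Potassium channel genes changed after LPS about as often as other genes, and more of them fell than rose. Of 78 tested, 11 were higher and 21 lower at an adjusted p of 0.05, or 41.0%, against 41.2% of all 17760 genes tested. By direction, 14.1% of the channel genes were higher, against 21.5% of all genes, and 26.9% were lower, against 19.7%. The median log2 fold change was -0.13, against 0.01 over all genes, and 30 of 78 values (38.5%) lay above 0, against 50.9% of all genes. A change of more than 2-fold was called for 7 of 78 members, all of them lower. Of all 17760 genes 1864 (10.5%) passed this rule in either direction. Their split by direction was not counted, so the direction of the 7 has no share to be set against. The groups did not overlap in the higher direction for 9 of 78 members and for 3411 of 17760 genes (19.2%). In the lower direction these counts were 17 and 3177 (17.9%).

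The counts by class came from 9 to 37 tested genes each. Two-pore genes had 0 higher and 5 lower of 11 tested (median -0.48), and calcium-activated genes 1 higher and 5 lower of 11 (median -0.42). Voltage-gated genes were mixed, with 7 higher and 9 lower of 37 (median -0.10), and so were their auxiliary genes, with 3 higher and 1 lower of 9 (median -0.04). Inward rectifiers had 0 higher and 1 lower of 10 (median -0.11). The share called was 45.5% for two-pore, 54.5% for calcium-activated, 43.2% for voltage-gated and 44.4% for auxiliary genes, and 10.0% for inward rectifiers. Over all genes it was 41.2%, with 21.5% higher and 19.7% lower. No difference between classes was tested.

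Both counts moved when single libraries were left out. Leaving out Sample 1L, 2L, 3L, 4L or 8L left 7 higher genes each, against 11, while the lower genes numbered 16 to 22 over the 8 fits. The share of all genes called moved too, from 31.8% without Sample 4L to 47.1% without Sample 2L, against 41.2%. Of the 32 called genes 22 were called with every library left out. In the 4 libraries whose labels agree (Samples 1L, 3L, 5L and 7L) 31.8% of all genes were called. Of the channel genes 7 were higher and 17 lower there, and 20 of these 24 were among the 32. By class these were 5 higher and 8 lower voltage-gated genes, 1 higher auxiliary gene, 2 lower inward rectifiers, 3 lower two-pore genes, and 1 higher and 4 lower calcium-activated genes.

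**Figure D1:**
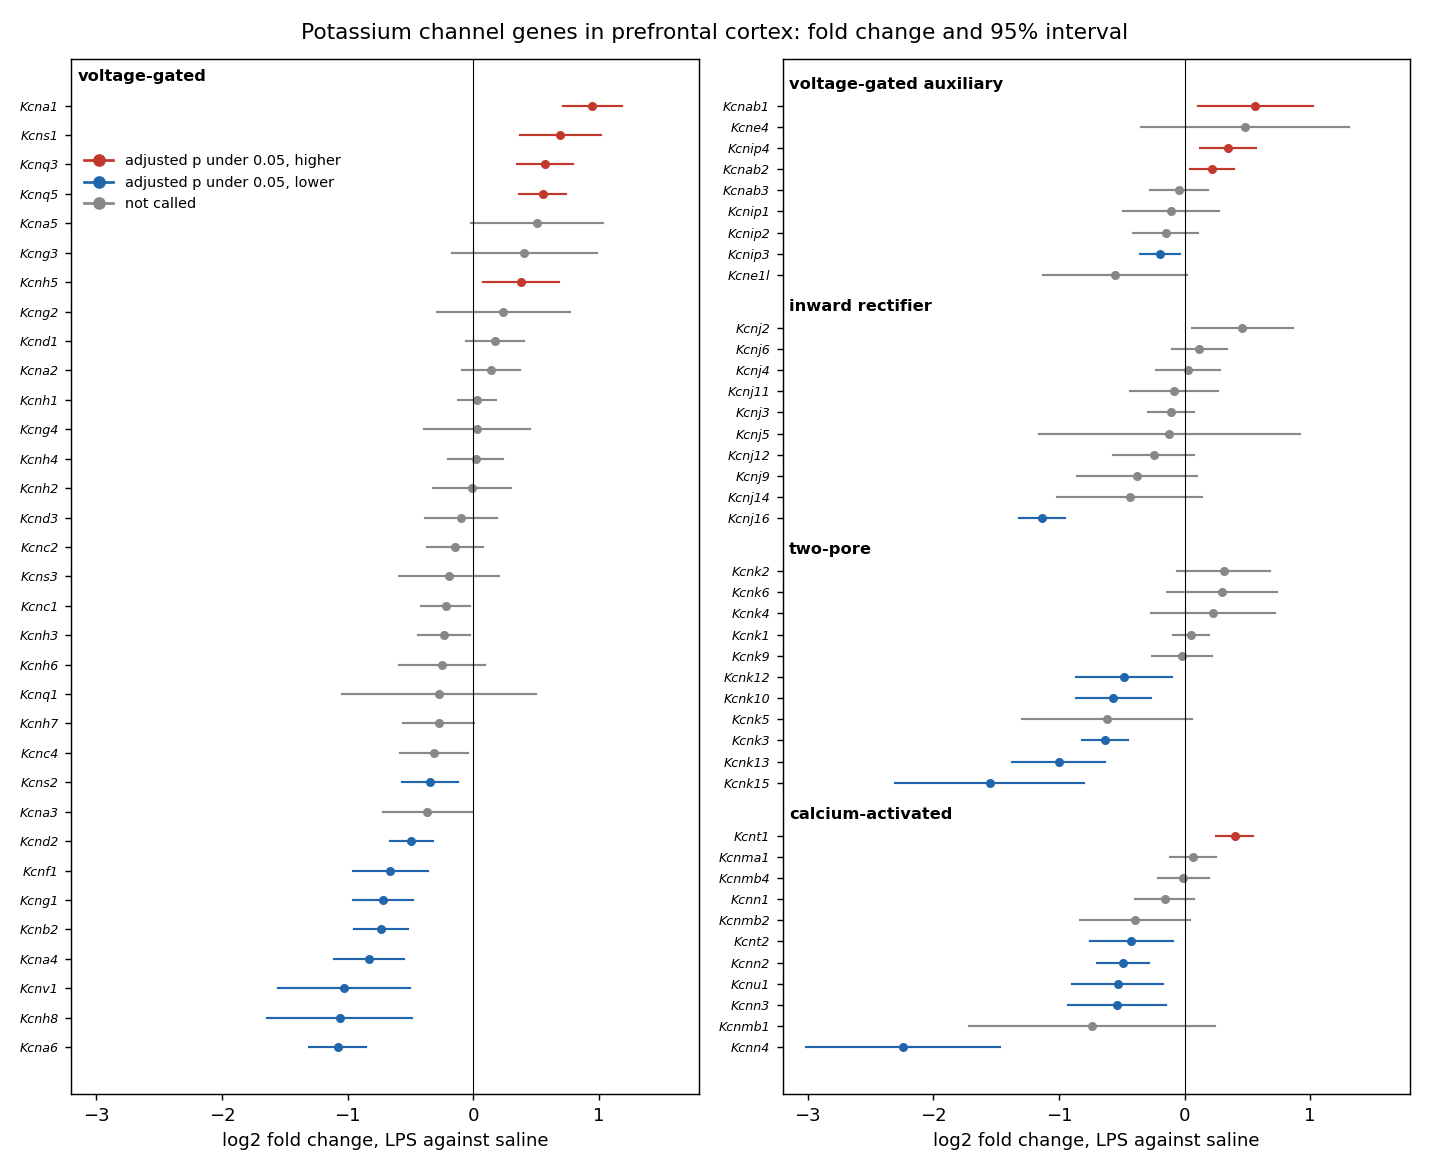
Log2 fold change of 74 tested potassium channel genes in prefrontal cortex, LPS against saline, with its 95% interval (edgeR), by class. Red marks 9 higher and blue 21 lower genes, and the two-pore panel holds blue and grey points only.

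Among the voltage-gated genes the strongest opposite changes came from 2 neighbours of the Kv1 family, whose channels sit along axons and at terminals and hold back firing. Kcna1, the Kv1.1 gene, was at 61.6, 55.8, 63.1 and 68.5 CPM with saline and at 126, 119, 140 and 96.2 CPM with LPS. Every LPS library lay above every saline library, and Kcna1 rose by 0.95 on the log2 scale (SE 0.108, adjusted p = 7.1e-05). Kcna6, the Kv1.6 gene, moved the other way, from 116, 104, 95.1 and 122 CPM to 61.1, 46.6, 51.2 and 48.0 CPM. Its groups did not overlap either, and it fell by 1.08 (SE 0.104, adjusted p = 2.44e-05). In the 4 libraries with agreeing labels the log2 changes were 1.00 for Kcna1 and -1.16 for Kcna6, both called.

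Kcna4, the Kv1.4 gene of rapidly inactivating current, was at 32.8, 34.1, 46.9 and 33.5 CPM with saline and at 22.6, 22.4, 19.8 and 18.3 CPM with LPS. It fell by 0.83 (SE 0.128, adjusted p = 0.000489), with Sample 6L standing above the other saline libraries. Kcna2, the Kv1.2 gene and a frequent partner of Kv1.1, was at 272 ± 39.4 CPM with saline and 300 ± 31.4 with LPS (SD, n = 4 each), a log2 difference of 0.14 with a 95% interval of -0.09 to 0.37. Kcna3, the Kv1.3 gene known from lymphocytes and microglia, was at 8.58 ± 1.91 and 6.67 ± 0.699 CPM (SD, n = 4 each; log2 difference -0.36, adjusted p = 0.0948), and passed without Sample 3L (adjusted p = 0.0455).

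Genes of the Kv7 family, which carries the M-current that damps repetitive firing, were among those that rose. Kcnq3 was at 142, 130, 124 and 146 CPM with saline and at 226, 194, 222 and 162 CPM with LPS, with no overlap. It rose by 0.57 (SE 0.103, adjusted p = 0.00127). Kcnq5 was at 108, 96.1, 93.4 and 117 CPM with saline and at 157, 155, 160 and 136 CPM with LPS, again without overlap. It rose by 0.55 (SE 0.0868, adjusted p = 0.000533). Kcnq1, the family member of the heart, was low, at 1.40 CPM with saline, and did not pass.

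Other delayed and A-type channel genes mostly fell or did not pass. Kcnb2, a Kv2 delayed rectifier gene, was at 61.2, 52.5, 67.2 and 65.2 CPM with saline and at 33.8, 34.7, 37.2 and 42.3 CPM with LPS. It fell by 0.73 (SE 0.0996, adjusted p = 0.000217). Kcnd2, the Kv4.2 gene of the dendritic A-type current, was at 149, 147, 175 and 145 CPM with saline and at 105, 104, 117 and 111 CPM with LPS. It fell by 0.49 (SE 0.0776, adjusted p = 0.000544), and the groups did not overlap.

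Kcnc1, a Kv3 gene of fast-spiking interneurons, was at 273, 207, 264 and 269 CPM with saline and at 211, 204, 222 and 233 CPM with LPS (log2 difference -0.22, adjusted p = 0.0705). It passed without Sample 3L (adjusted p = 0.00526), the low saline library. Of 8 fast-spiking interneuron markers Pvalb (0.48), Syt2 (1.16) and Lhx6 (0.40) were higher and Gad1 (-0.62) was lower. Their sum ran from 1095 to 1561 CPM with saline and from 812 to 1192 CPM with LPS. Gad1, at means of 827 and 538 CPM, was the largest part of it, so the sum fell while 3 markers rose. Gad1 and Gad2 are also on the neuronal list and Tac1 on the striatal list. The sum is therefore not particular to fast-spiking cells. The part of fast-spiking cells in the Kcnc1 values was not tested. Kcnh7, an ERG channel gene, was at 112 ± 16.4 and 92.7 ± 16.4 CPM (SD, n = 4 each; log2 difference -0.27, adjusted p = 0.112) and passed without Sample 2L or 6L (adjusted p 0.00936 to 0.0482).

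The silent voltage-gated genes, whose subunits form no channel alone and modify Kv2 channels, had 1 higher and 4 lower of 9 tested. This was a share of 55.6% called, against 41.2% of all genes. Kcng1 was at 47.9, 39.3, 45.0 and 44.3 CPM with saline and at 29.3, 27.0, 29.3 and 21.6 CPM with LPS. It fell by 0.72 (SE 0.109, adjusted p = 0.000427). Kcns1, known from sensory neurons, was at 16.5, 14.5, 9.78 and 14.2 CPM with saline and at 25.6, 21.0, 20.5 and 21.8 CPM with LPS. It rose by 0.69 (SE 0.148, adjusted p = 0.00328), so members of this family moved in both directions.

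The other silent and EAG-type calls were named after their values were seen. Kcnv1 was at 74.0, 85.5, 58.3 and 67.9 CPM with saline and at 57.4, 34.2, 23.8 and 24.8 CPM with LPS. It fell by 1.03 (SE 0.240, adjusted p = 0.00554), and Sample 2L, the highest of the LPS group, lay just under the lowest saline library. Kcnf1, the third most abundant member per length in cortex, fell by 0.66 from 283 ± 34.2 to 179 ± 39.3 CPM (SD, n = 4 each; adjusted p = 0.00286) and was not called in the 4 libraries whose labels agree (adjusted p = 0.0714). Kcnh8, a low ELK gene, fell by 1.06 from 1.71 to 0.818 CPM and was not called there either (adjusted p = 0.149). Kcns2 fell by 0.35 (adjusted p = 0.0594 in those 4 libraries). Kcnh5 rose by 0.38, a call lost with any of 6 libraries left out, all but Samples 4L and 6L (adjusted p 0.0663 to 0.113).

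The voltage-gated genes that did not pass included Kcna2, Kcna3, Kcna5, Kcnc1, Kcnc2, Kcnc4, Kcnd1, Kcnd3, Kcng2, Kcng3, Kcng4, Kcnh1, Kcnh2, Kcnh3, Kcnh4, Kcnh6, Kcnh7, Kcnq1 and Kcns3. Their log2 differences ran from -0.36 for Kcna3 to 0.51 for Kcna5. Kcnh3 passed without Sample 3L or 7L (adjusted p 0.0145 to 0.0455) and Kcnc4 without Sample 6L (0.00396), and in all 11 uncalled members of the 5 classes passed with some library left out. Kcna5, the Kv1.5 gene, was at 10.4, 14.4, 22.2 and 12.6 CPM with saline and at 27.3, 20.3, 23.9 and 13.7 CPM with LPS. Its high saline library, Sample 6L, was also the saline library with the most striatal marker signal, and its low LPS library, Sample 7L, the LPS library with the least. With the striatal marker level as a covariate the Kcna5 difference was 0.38 (adjusted p = 0.0195), and without Sample 6L or 7L it passed as well (adjusted p 0.0182 to 0.0330). The cause of the spread in the Kcna5 values was not tested.

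**Figure D2:**
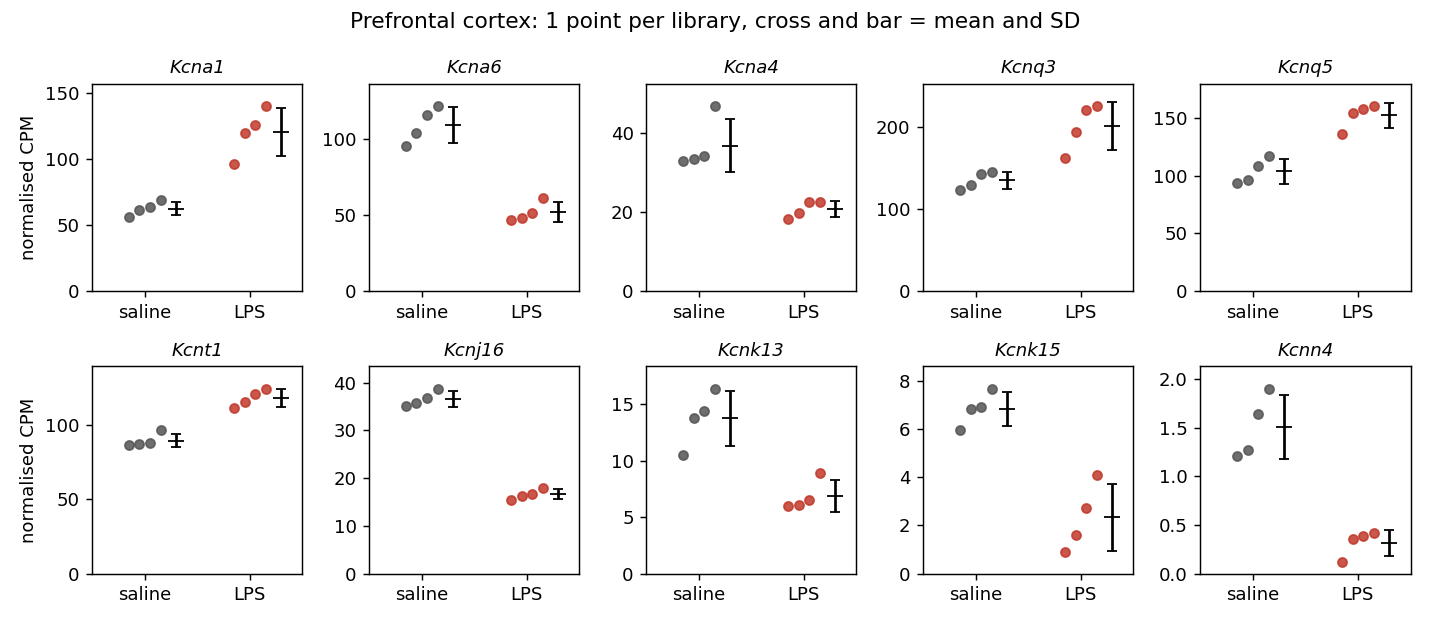
Normalised CPM of 10 potassium channel genes in each prefrontal cortex library, 4 saline (grey) and 4 LPS (red), with a cross for the mean and a bar for the SD; axes start at 0. The groups did not overlap for any of the 10 genes, from Kcna1 (55.8 to 68.5 against 96.2 to 140) to Kcnn4 (1.21 to 1.90 against 0.120 to 0.414).

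Auxiliary genes of the voltage-gated channels had log2 changes of -0.19 to 0.56 among the 4 called, and every call among them was lost with at least 1 library left out. Kcnip4, a KChIP that binds Kv4 channels, was at 73.0, 85.4, 57.2 and 73.1 CPM with saline and at 90.8, 92.9, 92.1 and 90.7 CPM with LPS. It rose by 0.34 (SE 0.102, adjusted p = 0.0183), and the call was lost without Sample 4L (adjusted p = 0.0541). Kcnip3, a KChIP also known as calsenilin, fell by 0.19 (adjusted p = 0.0498), lost with any library but Sample 6L left out (adjusted p 0.0565 to 0.136). Kcnip2, the KChIP most closely tied to the Kv4 current in heart, was at 106 ± 16.0 and 95.6 ± 13.1 CPM (SD, n = 4 each; log2 difference -0.15, adjusted p = 0.340).

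The beta subunit genes of Kv1 channels gave the other 2 calls. Kcnab2, the most abundant auxiliary gene, rose by 0.22 from 476 ± 33.4 to 555 ± 50.4 CPM (SD, n = 4 each; adjusted p = 0.0439), lost with any library but Sample 5L left out (adjusted p 0.0546 to 0.135). Kcnab1 was at 54.8, 71.6, 79.4 and 63.2 CPM with saline and at 122, 90.8, 127 and 56.7 CPM with LPS, with Sample 7L inside the saline range. It rose by 0.56 (SE 0.210, adjusted p = 0.0498), lost with any library but Sample 7L left out (adjusted p of at least 0.0502). Its 2 highest libraries, Samples 2L and 5L, were those with the most striatal marker signal (1774 and 2078 CPM). With the striatal marker level as a covariate the Kcnab1 difference was 0.38 (adjusted p = 0.00701). The cause of the spread in the Kcnab1 values was not tested. Kcnab3, Kcnip1, Kcnip2, Kcne4 and Kcne1l did not pass, and the count of higher auxiliary genes was 1 without Sample 1L, 2L, 3L or 8L and 0 without Sample 4L.

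Of the inward rectifiers only Kcnj16 passed in the fit of all 8 libraries. Kcnj16 encodes Kir5.1, which joins the astrocytic Kir4.1 subunit in a channel sensitive to pH. It was at 35.7, 38.8, 35.1 and 36.7 CPM with saline and at 16.3, 15.5, 16.8 and 17.9 CPM with LPS. The groups were far apart and tight, and Kcnj16 fell by 1.14 (SE 0.0849, 95% interval -1.32 to -0.95), with the smallest adjusted p of any member (3.87e-06). The fall was 1.11 in the 4 libraries with agreeing labels. Of 10 astrocyte markers 2 were higher (Gfap by 1.33) and 4 lower, with sums of 5132 to 5389 CPM with saline and 4845 to 5770 with LPS, none at 0. Of 6 markers of oligodendrocyte precursors 1 was higher and 4 lower, with sums of 174 to 199 and 119 to 132 CPM, none at 0. Of 10 markers of mature oligodendrocytes 0 were higher and 5 lower, with sums of 2972 to 3992 CPM with saline and 2626 to 3566 with LPS. The part of all these glial cells in the Kcnj16 value was not tested.

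The G-protein-gated rectifier genes of neurons did not pass. Kcnj3 was at 167 ± 12.1 and 155 ± 15.6 CPM (log2 difference -0.11), and Kcnj6 at 53.5 ± 6.32 and 58.0 ± 5.92 CPM (0.12; SD, n = 4 each). Kcnj9 was at 144, 131, 112 and 146 CPM with saline and at 162, 102, 67.9 and 78.6 CPM with LPS. Sample 2L alone lay above the saline range, so the difference of -0.38 did not pass (adjusted p = 0.186). Without Sample 2L it was -0.69 (adjusted p = 0.00135). Kcnj11, a pore gene of the ATP-sensitive channel, was at 45.9, 42.1, 41.5 and 47.9 CPM with saline and at 58.1, 34.3, 43.1 and 31.7 CPM with LPS, a difference of -0.09. It too had its highest value in Sample 2L and passed without it (-0.29, adjusted p = 0.0440).

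Kcnj2, the strong rectifier Kir2.1, was at 14.7, 16.5, 21.6 and 13.5 CPM with saline and at 29.2, 22.1, 23.9 and 16.0 CPM with LPS. Its log2 difference was 0.46 (SE 0.184, adjusted p = 0.0631). It passed without Sample 6L or 7L (adjusted p 0.0149 to 0.0232), in DESeq2 (0.0357), without a filter on low counts (0.0396), with the replicate block (0.0420) and with the striatal marker covariate (0.35, adjusted p = 0.0298). Kcnj4, Kcnj5, Kcnj12 and Kcnj14 did not pass, with differences of -0.44 to 0.03.

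Two-pore genes split into 5 that fell and 6 that did not pass. Kcnk3, the acid-sensitive leak channel TASK-1, was at 37.3, 34.5, 39.5 and 36.4 CPM with saline and at 23.6, 22.4, 23.2 and 26.0 CPM with LPS. The groups did not overlap, and Kcnk3 fell by 0.63 (SE 0.0849, adjusted p = 0.000199). Kcnk15, a TASK-related gene whose product gives little current alone, was at 5.95, 6.90, 6.83 and 7.67 CPM with saline and at 0.912, 2.72, 1.60 and 4.09 CPM with LPS. It fell by 1.55 (SE 0.343, adjusted p = 0.00410), the largest fall of the class, with wide spread within the LPS group. Kcnk10, the mechanically gated TREK-2, fell by 0.57 from 9.90 ± 0.885 to 6.69 ± 0.987 CPM (SD, n = 4 each; adjusted p = 0.00680) and was not called in the 4 libraries whose labels agree (adjusted p = 0.0911). Kcnk12, a THIK family gene, fell by 0.48 (adjusted p = 0.0457), a call lost without any of Samples 1L, 2L, 4L, 5L, 6L and 8L (adjusted p 0.0720 to 0.124).

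Kcnk13 encodes THIK-1, the leak channel best known as the main resting potassium conductance of microglia. It was at 14.4, 13.7, 16.4 and 10.5 CPM with saline and at 6.00, 6.47, 6.05 and 8.93 CPM with LPS, and fell by 1.00 (SE 0.169, adjusted p = 0.000823). Of 12 microglial markers 6 were lower and 3 higher, none at 0. P2ry12 was lower by 2.45, Siglech by 1.07 and Tmem119 by 0.91, while C1qa was higher by 0.55, C1qb by 0.68 and Ptprc by 0.75. Their summed level was 536 to 571 CPM with saline and 425 to 522 with LPS. The part of microglial number or state in the Kcnk13 value was not tested.

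The 6 two-pore genes that did not pass were Kcnk1, Kcnk2, Kcnk4, Kcnk5, Kcnk6 and Kcnk9. Kcnk1, the most abundant, was at 84.8 ± 3.75 and 88.0 ± 4.51 CPM (SD, n = 4 each; log2 difference 0.05, interval -0.09 to 0.20). Kcnk9, the TASK-3 gene, was at 63.1 ± 8.12 and 62.3 ± 8.04 CPM (-0.02, interval -0.26 to 0.22). Both intervals lay within a 1.5-fold change. Kcnk2, the TREK-1 gene, was at 55.5, 66.5, 63.0 and 47.5 CPM with saline and at 84.5, 65.2, 89.7 and 49.2 CPM with LPS (0.31, adjusted p = 0.159), and passed without Sample 7L (0.45, adjusted p = 0.0207). Kcnk6 was at 4.28 ± 0.739 and 5.26 ± 1.31 CPM (SD, n = 4 each; 0.30, adjusted p = 0.254).

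Among the calcium-activated genes 3 of the 4 small- and intermediate-conductance genes fell, Kcnn2 and Kcnn4 with every library left out in turn, and the large-conductance gene did not pass. Kcnn4, the intermediate-conductance channel of immune cells, was the lowest called member at 1.64, 1.27, 1.90 and 1.21 CPM with saline and 0.120, 0.352, 0.414 and 0.384 CPM with LPS. It fell by 2.24 (SE 0.354, adjusted p = 0.000550), the largest change of the 78 members tested. The microglial marker values given for Kcnk13 apply here too. Of 13 leukocyte markers 4 were tested, with 2 higher and 0 lower. The 13 summed to 2.87 to 13.7 CPM with saline and 8.06 to 28.5 with LPS. Cd4, at means of 4.73 and 11.0 CPM, was the largest part of this sum and was not called (adjusted p = 0.195). It was lowest in Samples 1L and 7L, the libraries of each group with the least striatal marker signal. The part of microglia and leukocytes in the Kcnn4 value was not tested. Kcnn2, a small-conductance gene of principal neurons, was at 40.5, 38.1, 46.3 and 46.8 CPM with saline and at 32.9, 30.3, 31.5 and 27.7 CPM with LPS. It fell by 0.49 (SE 0.0938, adjusted p = 0.00183), without overlap. Kcnn3 fell by 0.54 from 27.8 ± 3.53 to 19.1 ± 5.02 CPM (SD, n = 4 each; adjusted p = 0.0307), lost without Sample 1L or 6L (adjusted p 0.0539 to 0.0857). Kcnn1 was at 19.9 ± 1.17 and 17.8 ± 2.25 CPM (-0.16, adjusted p = 0.267).

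Kcnma1, the pore gene of the large-conductance BK channel, was at 317, 280, 269 and 345 CPM with saline and at 299, 336, 324 and 314 CPM with LPS. The groups overlapped, with a log2 difference of 0.07 and an interval of -0.11 to 0.25. Its accessory genes Kcnmb1, Kcnmb2 and Kcnmb4 did not pass (-0.73, -0.39 and -0.01). The sodium-activated genes moved apart. Kcnt1, which encodes Slack, was at 87.1, 86.8, 87.9 and 96.4 CPM with saline and at 111, 121, 125 and 116 CPM with LPS, and rose by 0.40 (SE 0.0671, adjusted p = 0.000786).

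Kcnt2, which encodes Slick, was at 17.4, 16.8, 14.6 and 20.5 CPM with saline and at 16.8, 11.1, 12.7 and 11.0 CPM with LPS. It fell by 0.42 (adjusted p = 0.0423), a call lost without any of Samples 1L, 3L, 4L, 5L, 7L and 8L (adjusted p 0.0659 to 0.123). Kcnu1, best known from sperm, fell by 0.53 from 3.16 to 2.19 CPM (adjusted p = 0.0239), lost without Sample 1L, 4L, 5L or 8L (adjusted p 0.0597 to 0.0665). The count of lower calcium-activated genes was 2 without Sample 1L and 3 without Sample 4L, 5L or 8L.

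The 11 members not tested in cortex were Kcna7, Kcna10, Kcnv2, Kcne1, Kcne3, Kcnj1, Kcnj15, Kcnk7, Kcnk16, Kcnk18 and Kcnmb3. They had at most 61 counts over the 8 libraries together. Of the 78 tested, 75 had a mean above 1 CPM with saline and 21 a mean above 100 CPM.

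Per length of exon, the most abundant members of saline cortex were Kcnj4 at 95.3 ± 9.97 CPM per kb and Kcnab2 at 85.4 ± 5.99 (SD, n = 4 each), whose ranges overlapped. Kcnf1 followed at 59.2 ± 7.14 CPM per kb, below Kcnab2 and above Kcnip3 (39.9 ± 3.38) without overlap. From Kcnip3 down through Kcnk1, Kcnh3, Kcnab3, Kcnj3, Kcnj9, Kcnip2 and Kcnd2 each gene overlapped the next. These 11 genes held 49.2% of the summed level per kb. The voltage-gated class held 44.3% ± 1.03 of that sum with saline and 42.8% ± 0.603 with LPS, and the auxiliary class 22.1% ± 0.897 and 24.2% ± 0.263 (SD, n = 4 each). Inward rectifiers held 18.9% and 18.4%, two-pore genes 8.26% and 7.96%, and calcium-activated genes 6.48% and 6.68%, so the make-up of the set by class shifted by under 3 percentage points.

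Partners of the channels outside the rule also moved in both directions. Of 24 listed genes 22 were tested, with 5 higher and 7 lower. Of all genes 21.5% were higher and 19.7% lower, and no difference of the partners from them was tested. Cntnap2, which anchors Kv1 channels beside the node, rose by 0.40 from 143 to 189 CPM. Lrrc55, a gamma subunit of the BK channel, fell by 1.23 from 74.8 to 32.0 CPM, and Kctd12, an auxiliary subunit of the GABA-B receptor that opens inward rectifiers, fell by 0.72 from 117 to 71.0 CPM. The median of the 22 was -0.02.

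By position, Kcna1 and Kcna6 lie beside each other on chromosome 6 with Kcna5 (GRCm38, GENCODE vM21). Kcna5 spans 126532551 to 126535412, Kcna1 126640397 to 126646384 and Kcna6 126708329 to 126740674, all on the minus strand. Kcna1 and Kcna6 thus rose and fell 61944 bases apart. Kcnj16 (chromosome 11, 110968033 to 111027968, plus strand) lies 38195 bases from Kcnj2, and only Kcnj16 passed. An exon overlap with another gene was annotated for 27 members, 9 of them called, which matters because the strand setting of the counting is not given. For Kcna6 the overlap with the antisense gene Gm26673 covers 39.6% of the exon length. Gm26673 was itself at 2.57 and 2.09 CPM (adjusted p = 0.530).

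Promoter windows of RefSeq (GRCm38.p6), from 250 bases before to 50 after a start, were held for 64 of the 89 genes, 88 windows in all; Kcna1 has none. The 3 windows below belong to the pair with the smallest adjusted p, Kcnj16 and Kcna6, and to Kcnd2. Kcnd2 was not chosen by its p. Its window and the printed one of Kcnj16 hold an interferon response motif, GAAA repeated after any 2 bases. Windows chosen in this way do not measure how often the motif occurs. Of the 20 windows of lower genes 2 hold it, and of the 12 windows of higher genes 2. Capitals mark that motif, here read on the opposite strand as TTTC repeated after any 2 bases.
Kcnj16, chr11:111023610-111023909, plus strand: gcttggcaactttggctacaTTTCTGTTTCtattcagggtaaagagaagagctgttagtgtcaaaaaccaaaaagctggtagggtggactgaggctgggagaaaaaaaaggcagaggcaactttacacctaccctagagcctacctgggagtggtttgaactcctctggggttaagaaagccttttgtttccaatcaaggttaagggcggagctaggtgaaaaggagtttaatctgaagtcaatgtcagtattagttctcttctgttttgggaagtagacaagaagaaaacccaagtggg
Kcna6, chr6:126740625-126740924, minus strand: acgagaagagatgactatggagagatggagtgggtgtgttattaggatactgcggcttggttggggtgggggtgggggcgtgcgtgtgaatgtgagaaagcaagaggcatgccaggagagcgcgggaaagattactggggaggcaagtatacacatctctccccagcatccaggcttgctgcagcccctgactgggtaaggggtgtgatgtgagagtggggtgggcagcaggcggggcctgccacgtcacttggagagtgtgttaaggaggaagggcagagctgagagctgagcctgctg
Kcnd2, chr6:21215096-21215395, plus strand: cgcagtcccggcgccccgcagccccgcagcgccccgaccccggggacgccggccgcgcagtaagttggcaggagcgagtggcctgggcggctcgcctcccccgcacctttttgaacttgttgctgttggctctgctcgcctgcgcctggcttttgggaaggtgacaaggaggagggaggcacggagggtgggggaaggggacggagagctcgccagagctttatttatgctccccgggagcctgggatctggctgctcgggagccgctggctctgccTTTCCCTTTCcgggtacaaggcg
Kcnj16 has 4 windows and the other 3 do not hold the motif. On either strand it occurred in 7 of the 88 windows (7.95%), against 3.44% of 32851 windows of all genes. It occurred in windows of Kcnd2 and Kcnj16, which fell, of Kcnab1, which rose, of Kcnc2, which did not pass, and of Kcna7, which was not tested. The cAMP element TGACGTCA and the NF-kB motif (GGGA, any base, TTTCC) occurred in 0 of 88, against 1.79% and 0.411% of all windows. The AP-1 motif TGANTCA occurred in 4 (4.55% against 7.81%), the E-box CACGTG in 7 (7.95% against 7.15%) and the SP1 motif GGGCGG in 43 (48.9% against 35.7%). The median GC content was 58.3%, against 52.7%. A match describes these letters only.

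In hippocampus no potassium channel gene passed the test with nicotine. Of 78 tested, 0 were higher and 0 lower in edgeR, as for all 18873 genes tested (0% called), and the groups overlapped for every member, where 0.387% of all genes did not overlap (0.17% higher and 0.217% lower with nicotine). At an unadjusted p under 0.05 there were 6 of 78 members higher and 1 lower, or 7 in all. Of all 18873 genes 735 were higher (3.89%) and 842 lower (4.46%), or 1577 in all (8.36%). DESeq2 and limma-voom called 0 members as well, with 11 and 8 at an unadjusted p under 0.05. The 95% interval lay within a 1.5-fold change for 64 of the 78 and reached 2-fold for 0.

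The values leaned upward in size all the same. The median log2 difference was 0.08, against 0.00 over all genes, and 58 of 78 members (74.4%) lay above 0, against 50.9% of all genes. Medians were 0.12 for voltage-gated genes, 0.06 for inward rectifiers, 0.06 for calcium-activated genes, 0.03 for two-pore genes and -0.04 for auxiliary genes. Other lists leaned upward too, with medians of 0.12 for neuronal markers, 0.12 for channel partners and 0.20 for fast-spiking interneuron markers. Only the microglial (-0.08) and choroid plexus (-0.57) lists had medians below 0. The lean was therefore not particular to channel genes. Sample 2N, a saline library, was the lowest of its group for 48 of the 78 members. Its summed channel level was 4461 CPM, against 5410 to 5866 in the other saline libraries and 5309 to 6098 with nicotine, and its oligodendrocyte marker sum was the highest of all (8203 CPM against 2580 to 6418). Without it 54 members (69.2%) lay above 0 and the median was 0.06, and 69.2% was the lowest share with any single library left out.

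Choroid plexus markers also differed between hippocampal libraries, from 47.2 to 4145 CPM in sum with saline and from 64.3 to 2438 CPM with nicotine, and 0 of 12 were called. Without the 4 libraries above 1000 CPM of Ttr, a transport protein gene of that tissue, 52 of 77 members (67.5%) lay above 0. This setting was chosen after the data were seen.

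Kcnab3, a Kv1 beta subunit gene, had the smallest p. It was at 21.7, 23.8 and 27.2 CPM with saline (lowest, median and highest of 6) and at 26.0, 29.8 and 37.4 CPM with nicotine. The ranges overlapped, and the difference was 0.32 (SE 0.0837, adjusted p = 0.555). Kcna2 was at 131, 184 and 193 CPM with saline and at 192, 216 and 248 CPM with nicotine, a difference of 0.30 (SE 0.0900, adjusted p = 0.555). Its lowest value was again Sample 2N.

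Kcnk3 was at 12.7 ± 1.32 CPM with saline and at 15.5 ± 1.97 CPM with nicotine (SD, n = 6 each; 0.29). Kcnj12, a strong inward rectifier gene, was at 3.83, 4.50 and 5.43 CPM and at 4.46, 5.44 and 7.38 CPM (0.38). Kcnt1 was at 28.1, 36.0 and 46.7 CPM and at 37.9, 41.5 and 56.0 CPM (0.28). None of the 3 passed, with adjusted p of 0.555, 0.555 and 0.565.

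In the lower direction Kcnip2, an abundant KChIP gene of hippocampus, had the smallest p. It was at 151, 184 and 192 CPM with saline and at 140, 152 and 181 CPM with nicotine (-0.18, adjusted p = 0.578). Kcns2, Kcne1l, Kcng2 and Kcnj14 followed with differences of -0.19, -0.31, -0.17 and -0.22. None passed.

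**Figure D3:**
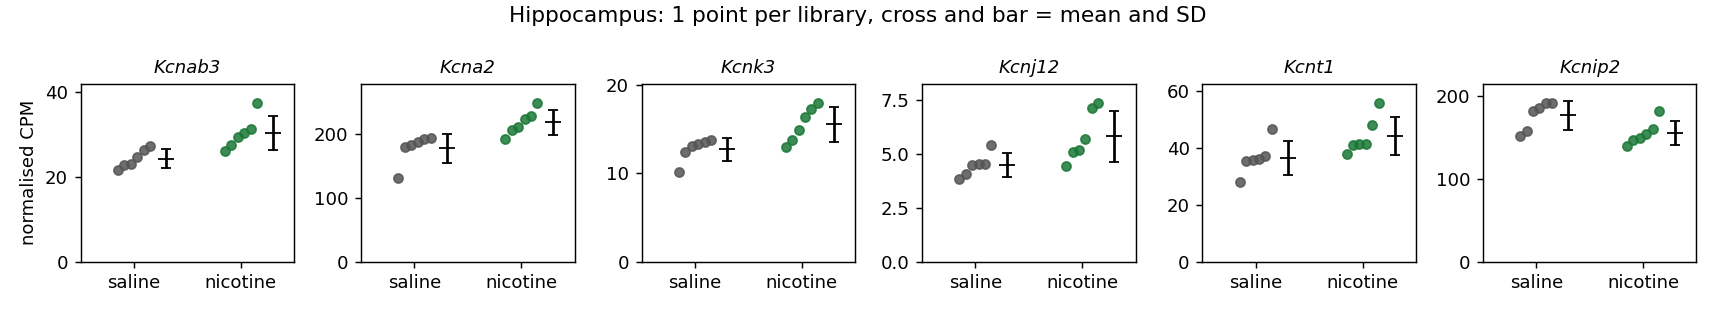
Normalised CPM of 6 potassium channel genes in each hippocampal library, 6 saline (grey) and 6 nicotine (green), with a cross for the mean and a bar for the SD; axes start at 0. The groups overlap in every panel, and the lowest Kcna2 point (131 CPM) is Sample 2N.

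The genes described for cortex gave small values in hippocampus. Of 41, 40 were tested and their log2 differences ran from -0.18 to 0.42, with a lowest adjusted p of 0.555. Kcna6 was at 70.9, 85.8 and 91.1 CPM with saline and at 82.4, 90.5 and 91.2 CPM with nicotine (0.09, interval -0.04 to 0.22). Kcnj16 was at 24.8, 26.5 and 35.7 CPM and at 25.0, 30.9 and 40.2 CPM (0.14, interval -0.11 to 0.38). Kcnk13 was at 4.83, 8.21 and 11.2 CPM and at 7.35, 8.15 and 9.59 CPM (0.01, interval -0.31 to 0.33). The 2 treatments were given to different tissues in different batches, and no difference between their effects was tested. Of the 22 channel partners tested in hippocampus 0 were called.

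Levels of the saline groups are set side by side without a test, since tissue, batch and table cannot be told apart. Ranges did not overlap for 46 of the 89 members, of which 32 were higher in cortex and 14 in hippocampus. The share over all genes was not counted for this comparison. These numbers, by class too, therefore do not set channel genes apart from other genes. The contrast was widest for Kcnk15, at 6.84 ± 0.705 CPM in cortex (SD, n = 4) and 0.0229 ± 0.0184 in hippocampus (SD, n = 6), where it had too few counts to be tested. Kcna5 was at 14.9 and 1.57 CPM, Kcnn4 at 1.51 and 0.219, Kcnh5 at 17.7 and 3.12, and Kcnf1 at 283 and 63.1. In the other direction Kcng2 was at 6.79 and 25.1 CPM, Kcns3 at 3.71 and 10.3, and Kcnip4 at 72.2 and 183.

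By class, 17 voltage-gated genes were higher in cortex and 6 in hippocampus, and 3 auxiliary genes were higher in cortex and 5 in hippocampus. All 5 inward rectifiers and all 3 two-pore genes whose ranges did not overlap were higher in cortex, and calcium-activated genes divided 4 to 3. Per length of exon Kcnab2 led in hippocampus at 134 ± 12.6 CPM per kb (SD, n = 6), above every other member. Kcnip2 (50.8 ± 5.08) and Kcnip4 (50.5 ± 7.21) followed and overlapped each other. The auxiliary class held 33.2% ± 2.48 of the summed level per kb in saline hippocampus and 31.1% ± 1.29 with nicotine (SD, n = 6 each), and the voltage-gated class 40.4% ± 2.23 and 42.0% ± 1.53.

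**Figure D4:**
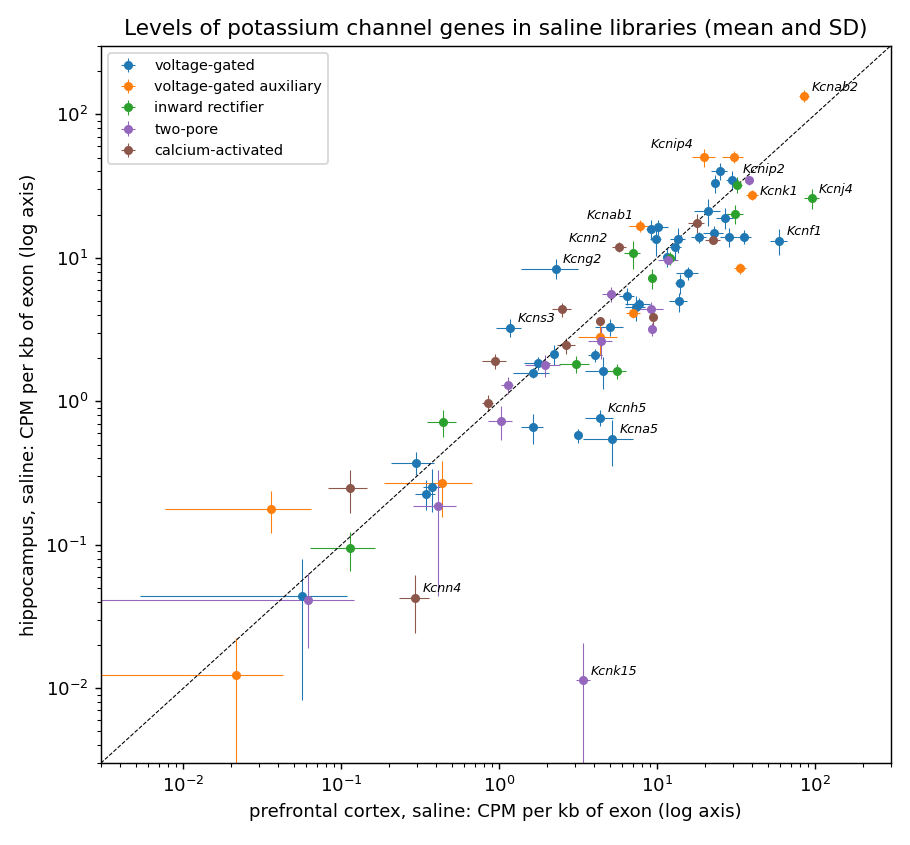
Mean level and SD of each potassium channel gene in saline prefrontal cortex (n = 4) and saline hippocampus (n = 6), in CPM per kb of exon on log axes, coloured by class; 82 genes are shown, those above 0.01 in both tissues, the dashed line marks equal values, and bars that pass 0 are cut. Kcnk15 lies far below the line, and Kcng2, Kcns3 and Kcnip4 lie above it.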

How the data were processed

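Per the labels' protocols, TRIzol RNA was made into poly(A)-selected libraries (Universal Plus mRNA-Seq kit). The authors deposited 1 table of unnormalised counts for each tissue. fastp, STAR, featureCounts, DESeq2 and build mm10 are named, without versions or roles, in the submitters' processing notes. Neither strand setting nor annotation is stated there, so reads of overlapping or near-identical genes may be shared.

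Totals per library ran from 36371084 to 46106526 counts (cortex) and from 51969343 to 68196280 (hippocampus). The median 95% interval of a log2 fold change extended 0.29 and 0.22 to either side. Pairs of libraries within a group differed by more than sampling noise (lowest chi-square per degree of freedom 11.0). The labels call the libraries biological replicates. No count column was left without a library.

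The 89 members, their classes, the lists of markers and partners, the naming rule and the tests were chosen with earlier results of these data known. Groups followed the count column named in each record. Ensembl identifiers of the hippocampal table were matched to symbols, 51884 of 57180. Each tissue was fitted over its whole table with edgeR 4.0.16 in R 4.3.3 (TMM factors, filterByExpr, quasi-likelihood F-test, Benjamini-Hochberg adjustment over all genes tested, threshold 0.05). Levels are TMM-normalised CPM, and exon lengths and positions come from GENCODE vM21. In cortex the genes named were up to 5 members per class and direction with the smallest p among those past the threshold with at least 1 CPM, and a set fixed by name. In hippocampus they were the 5 members per direction of lowest p, and of the channel partners 2 per direction. Other genes are said to be named after their values were seen, or are listed only to account for the members. Some genes are counted in the sums but not reported here by name.

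Alternatives were DESeq2 1.42.0, limma-voom (limma 3.58.1), RLE and upper-quartile factors, no filter, a 1 CPM filter, each library left out, a replicate block, marker covariates, the groupings by label, and, chosen after seeing the data, the hippocampal libraries without high Ttr. On simulated data of prefrontal cortex, with 100 genes at each size of change, edgeR found 54 at 1.5-fold and 82 at 2-fold and made 13 false calls among 17760 genes. For hippocampus it found 77 and 94 of 100 and made 3 false calls among 18873.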

Additional observations from a re-analysis of the deposited data

Results flagged for a closer look

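Among 102 groups of libraries checked for a single library standing apart from its group, 9 potassium channel values were found, where chance gives about 1 in 20. In saline prefrontal cortex Sample 6L was high for Kcna4 at 46.9 CPM (the other saline libraries at 32.8 to 34.1), for Kcnd2 at 175 CPM (145 to 149), for Kcnn3 at 33.1 CPM (25.5 to 26.8) and for Kcnip2 at 130 CPM (95.7 to 100.2). Sample 8L was high for Kcnt1 at 96.4 CPM (86.8 to 87.9), and Sample 3L was low for Kcnc1 at 207 CPM (264 to 273). In the LPS group Sample 7L was high for Kcnk13 at 8.93 CPM (6.00 to 6.47). In saline hippocampus Sample 2N was low for Kcna2 at 131 CPM (178 to 193), and Sample 4N was high for Kcnj14 at 2.76 CPM (1.53 to 1.93). Kcna4, Kcnd2, Kcnt1 and Kcnk13 were called with every library left out in turn. The Kcnn3 call was lost without Sample 6L or 1L, and Kcnc1 was called only without Sample 3L among the fits that leave out 1 library.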

How the results depend on the processing

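In prefrontal cortex the count of higher potassium channel genes was 11 and ran from 7 to 12 with each library left out; it was 7 in the 4 libraries with agreeing labels and 0 with grouping by title. The count of lower genes was 21 and ran from 16 to 22 with each library left out; it was 17 in the 4 libraries and 0 by title. Over all genes the share called was 41.2% and ran from 31.8% to 47.1% with each library left out. It was 31.8% in the 4 libraries and 0% by title. The cause of these shifts was not tested. Across DESeq2, limma-voom, RLE and upper-quartile factors, no filter, the 1 CPM filter and the striatal covariate the counts were 8 to 12 higher and 19 to 23 lower. With a replicate block they were 9 and 17, of which 25 were shared with the fit without it. Of all genes 34.1% were called with the block. Across the other settings this share ran from 23.6% with no filter to 45.7% with the 1 CPM filter. Same-numbered cortical libraries had correlations of -0.151 to -0.0248, so no pairing by number was seen. The numbers come from the titles, and so few values cannot exclude pairing. In hippocampus every setting gave 0 called members, the replicate block included, with correlations of -0.161 to 0.415 between same-numbered libraries. With each library left out, 16 of the 46 uncalled cortical members and 0 of the 32 called changed sign. Among these, Kcnj11 ran from -0.288 to 0.0181 (without Sample 7L) and Kcnk9 from -0.102 to 0.0626 (without Sample 8L, and 0.0400 without Sample 7L). In simulated cortical data 54 of 100 genes with a 1.5-fold change were recovered. Far fewer genes changed there than were called in the real fit (41.2%), and the adjusted p depends on that share. The recovery therefore need not hold for the real data.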
